A study of Mus musculus with 29 samples.

Results

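Lysosomes are the acid compartments in which cells take apart proteins, glycans and lipids that reach them by endocytosis, phagocytosis and autophagy. A proton pump in the lysosomal membrane, the V-ATPase, keeps the lumen acid, soluble hydrolases do the digestion, and heavily glycosylated membrane proteins line and protect the wall. Every cell of the arterial wall has lysosomes, macrophages have very many, and the transcription factor TFEB raises many lysosomal genes together by binding a short palindromic sequence near their starts.

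The genes described here are 51 genes for lysosomal enzymes and membrane proteins, listed by name. The rule uses no measured value, but the list was drawn up with earlier results of these data known. They comprise 12 proteases, a pair of secreted regulators (cystatin C and progranulin), 16 glycosidases and sulfatases, 8 genes for lipid breakdown and cholesterol export, 7 membrane proteins, 5 subunits of the V-ATPase, and Tfeb. All 51 symbols were found among the 56748 genes of the deposited count table. All 51 also passed the filter of more than 10 counts in more than 10 of 28 samples, which left 12353 genes for testing.

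Counts came from bulk RNA of the aortic arch, isolated after flushing the vessels with saline, with 1 library per mouse. Ercc1Δ/− mice carry a null and a hypomorphic truncated allele of Ercc1, a subunit of a DNA repair endonuclease, and age fast. WT littermates were the controls, and both genotypes were F1 hybrids of C57BL6J and FVB fed AIN93G pellets. AL-fed mice of 6 weeks (5 WT and 5 Ercc1Δ/−) and 22 weeks (4 WT and 4 Ercc1Δ/−) were compared with mice of 22 weeks on dietary restriction (DR, 5 WT and 5 Ercc1Δ/−), whose food was cut in steps of 10% from week 7 to 30% less from week 9 on. Both sexes were in every group, 17 males and 11 females in all.

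The libraries held 921167 to 9616382 counts on genes, and those of 22-week-old AL-fed WT mice (3903589 to 9616382) were all deeper than those of AL-fed Ercc1Δ/− mice of that age (1294980 to 3855444). On DR the libraries of WT mice (2660422 to 6124471) were likewise all deeper than those of Ercc1Δ/− mice (921167 to 2572523). Ercc1 itself was lower in Ercc1Δ/− mice in all 3 genotype comparisons, for example 16.0 ± 1.99 against 31.1 ± 2.35 CPM (counts scaled to a library total of 1000000; SD, n = 4 and 4) at 22 weeks on AL, although at 6 weeks the ranges overlapped. Smooth muscle markers were high, with Myh11 at 5274 to 17310 CPM over all 28 mice. The sum of 9 smooth muscle markers was above that of 7 fibroblast markers in every mouse except 027, a 6-week-old Ercc1Δ/− mouse (25120 against 27610 CPM). None of the 15 markers of T cells, B cells and neutrophils passed the filter, and their summed levels stayed at or below 18.9 CPM per list in every mouse. One Ercc1Δ/− mouse on DR, 016, stood apart with a summed level of 1772 CPM for 22 macrophage markers against 751 to 835 CPM in the other 4 mice of its group, and with 449 CPM for 4 markers of serous cavity macrophages against at most 133 CPM in every other mouse. It also had the highest sums of neutrophil (18.9 CPM) and B cell markers (15.0 CPM), against at most 5.56 and 5.54 CPM in every other mouse. Its T cell sum (3.26 CPM) lay within the range of the other mice. Results that rest on mouse 016 are therefore given with and without it. The fits with the macrophage mean as a covariate are an exception, since they were run only with this mouse included. Gata6 made up most of the serous cavity sum in 22-week-old AL-fed WT mice, with a mean of 103.4 CPM in sums of 114.3 to 124.7 CPM. The sum does not show which of the 4 genes carried the excess in mouse 016.

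Per kilobase of exon the genes covered a wide range. Cst3, which encodes the secreted cathepsin inhibitor cystatin C, was the highest at 586 CPM per kilobase over the 28 mice, followed by Psap, the precursor of the saposins that help to degrade sphingolipids, at 478 CPM per kilobase. Laptm4a (161), Ctsb (132) and Lamp1 (130.0) came next. Manba (2.83), Gla (3.71) and Ctss (3.83), which encodes cathepsin S, a protease of antigen-presenting cells, were the lowest. Reads were counted over whole genes, introns included, so the order depends on the length used. Per kilobase of the whole gene Cst3 and Psap were again the highest, Laptm4a moved to rank 9 from 3, and Arsb (0.268), Manba (0.411) and Glb1 (0.429) were the lowest, with Ctss at rank 46 of 51. The coefficient of variation between mice was computed in each of the 6 groups, and its median over the groups was taken for each gene. These medians ranged from 5.83% (Lamp1) to 34.4% (Ctss), and the middle gene had 10.8%. Single groups spread more widely, from as low as 1.89% for Grn in 22-week-old AL-fed WT mice. In Ercc1Δ/− mice on DR, the group of mouse 016, Ctss had 50.1% and Man2b1 44.8%. For Laptm5 in that group the SD (66.15 CPM) was above the mean (61.59 CPM).

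A search of the 300 bases around each start (250 before, 50 after, GRCm39) for CACGTG, the core of the sequence that TFEB binds, found it in 13 of the 51 genes (25.5%), against 7.82% of 21757 promoters of the genome and 10.1% of the 11641 promoters of tested genes. The longer form GTCACGTG, searched on both strands and contained in part of those matches, was present in 10 of the 51 (19.6%) and in 2.55% of all promoters. The genes with CACGTG were Arsa, Atp6v1a, Atp6v1h, Ctsb, Ctsd, Ctsf, Gaa, Gla, Glb1, Lamp1, Mcoln1, Naglu and Sgsh. A match describes the letters of the window and shows no binding. Shown are 80 bases upstream of 4 genes that hold it (capitals mark CACGTG) and of 4 genes without it that rose in 22-week-old Ercc1Δ/− mice, because the split between such genes returns in the results. Each run is the stretch nearest to the start that held no exon of a protein-coding gene.
Glb1, chr9:114230064-114230143, plus strand: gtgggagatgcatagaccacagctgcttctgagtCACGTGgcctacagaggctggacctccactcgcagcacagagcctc
Ctsd, chr7:141941776-141941855, minus strand: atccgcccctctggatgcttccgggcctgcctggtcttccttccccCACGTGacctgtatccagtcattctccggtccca
Gaa, chr11:119158628-119158707, plus strand: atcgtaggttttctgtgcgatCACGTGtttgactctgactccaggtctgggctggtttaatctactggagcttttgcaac
Lamp1, chr8:13209041-13209120, plus strand: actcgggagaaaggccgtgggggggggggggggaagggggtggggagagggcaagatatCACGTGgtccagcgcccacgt
Ctss, chr3:95433883-95433962, plus strand: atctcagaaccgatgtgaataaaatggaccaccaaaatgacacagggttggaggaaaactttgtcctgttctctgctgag
Fuca1, chr4:135647924-135648003, plus strand: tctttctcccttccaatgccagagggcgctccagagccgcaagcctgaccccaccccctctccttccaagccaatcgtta
Lipa, chr19:34504938-34505017, minus strand: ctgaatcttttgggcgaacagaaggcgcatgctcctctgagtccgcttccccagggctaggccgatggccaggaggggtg
Hexa, chr9:59446738-59446817, plus strand: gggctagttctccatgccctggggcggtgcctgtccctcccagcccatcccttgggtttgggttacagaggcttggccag

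In AL-fed mice of 22 weeks, 15 of the 51 genes (29.4%) were significantly higher in Ercc1Δ/− than in WT aorta and none was lower, against 11.5% of all tested genes called in either direction 5.42% called higher and 6.07% called lower. The median log2 fold change over the 51 genes was 0.15, against 0.03 over all tested genes, and 39 of the 51 were positive (76.5%, against 53.6% of all genes). A call needed an adjusted p of at most 0.05 and a fold change of at least 1.2 in edgeR's quasi-likelihood test with Benjamini-Hochberg adjustment over the 12353 genes, and this holds for every adjusted p given here unless a permutation test is named. With 1 library per mouse, p-values measure the spread between mice. In 18 of the 51 genes every Ercc1Δ/− mouse was above every WT mouse and in 1, Tfeb, every Ercc1Δ/− mouse was below, while 18.6% of all genes had ranges that did not overlap. Summed over the 51 genes, the level was 9500 to 9803 CPM in the 4 WT mice and 10850 to 11910 CPM in the 4 Ercc1Δ/− mice.

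**Figure D1:**
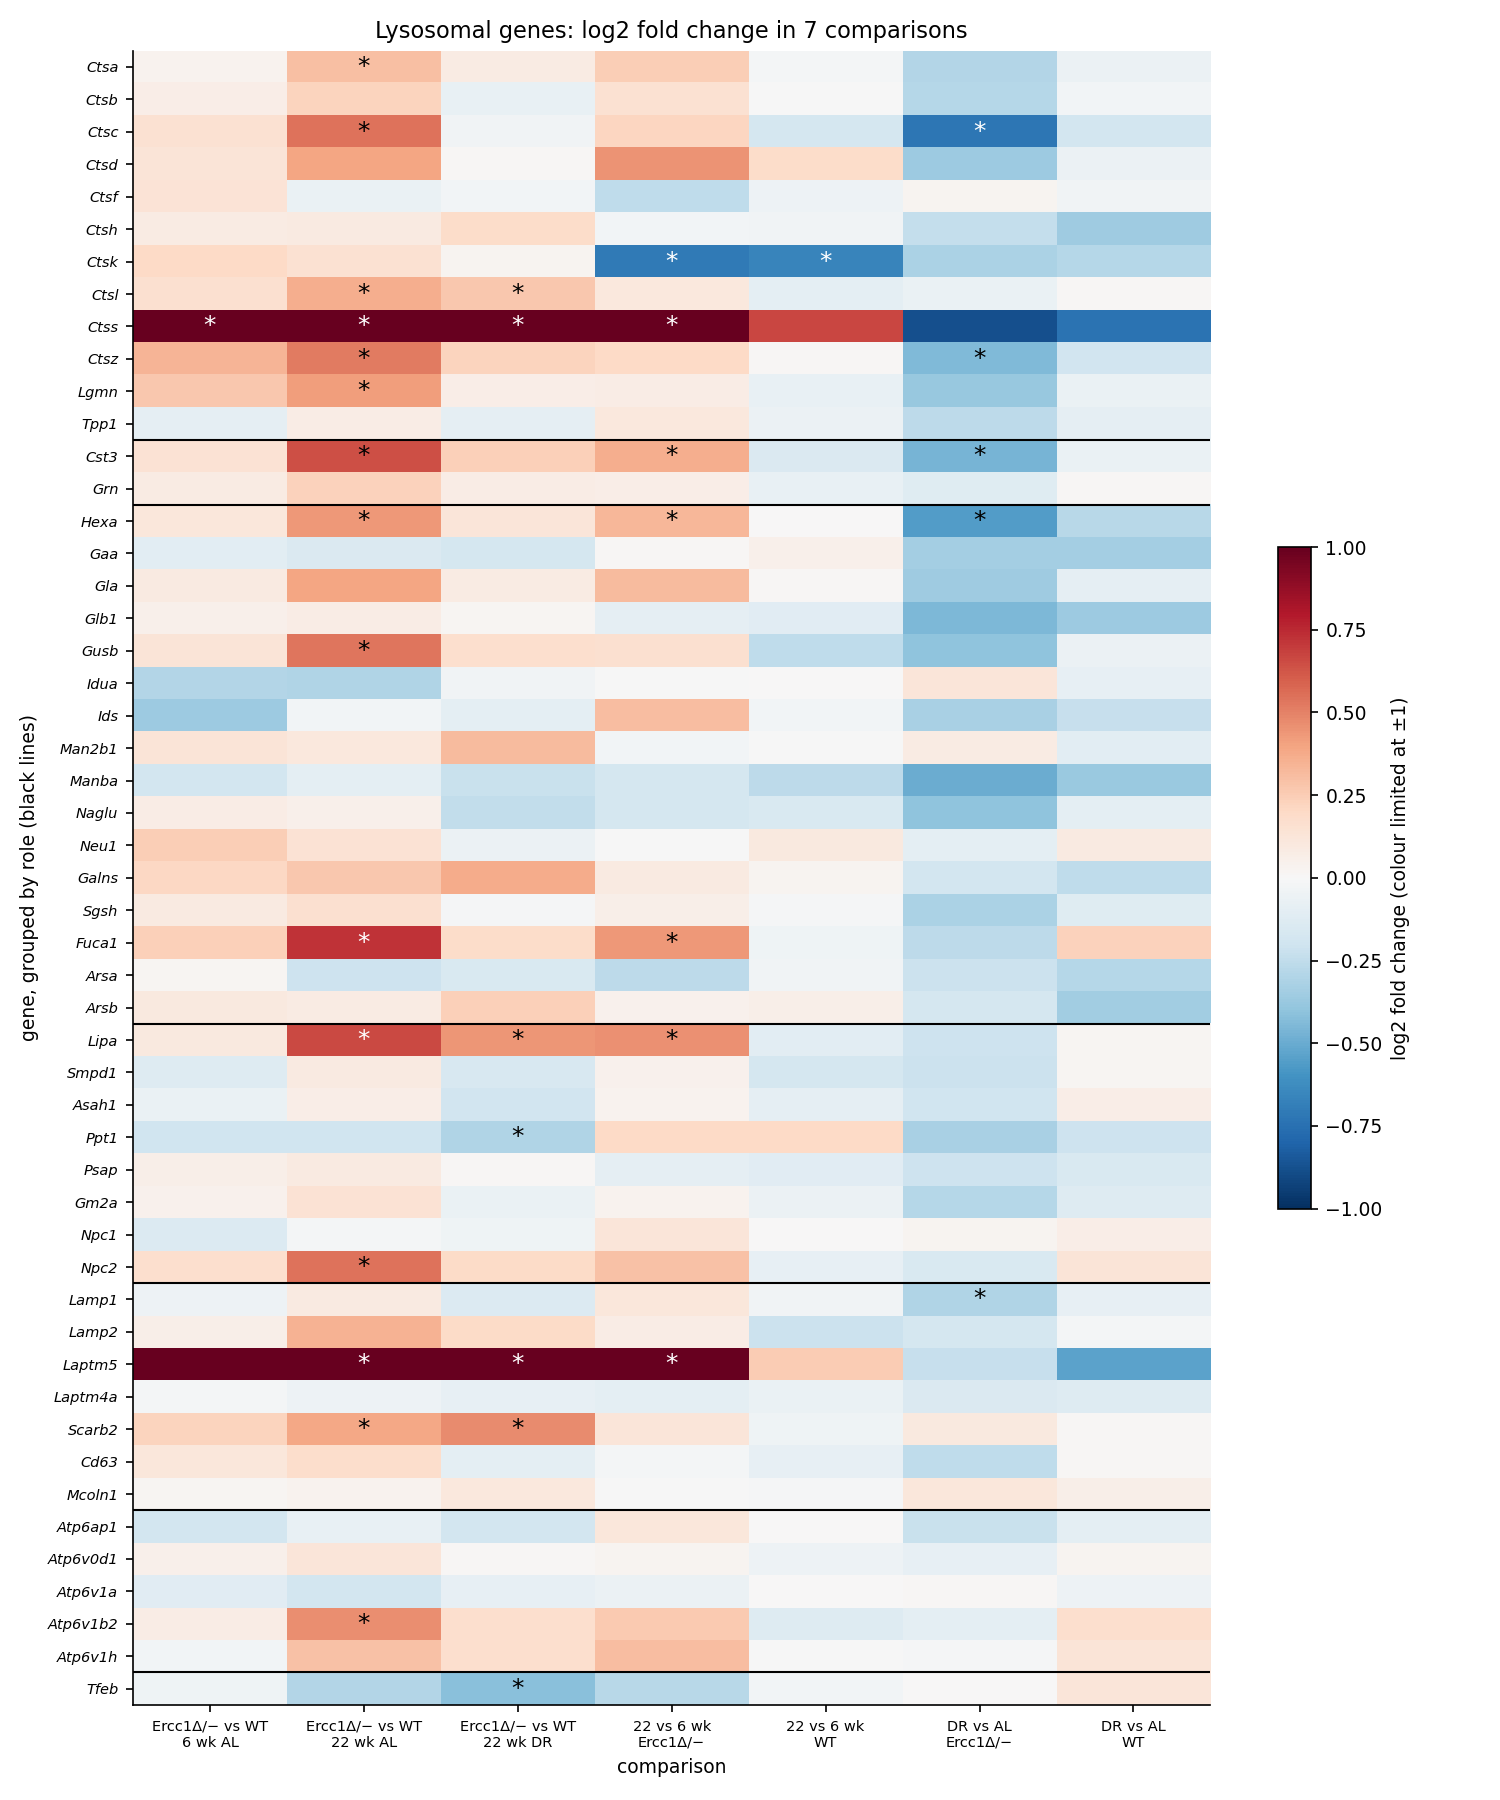
Log2 fold change (colour, red higher and blue lower, limited at ±1) of the 51 genes (vertical axis, grouped by role) in 7 comparisons (horizontal axis), with an asterisk where the gene passed the test. The asterisks of 22-week-old AL-fed Ercc1Δ/− against WT mice, 15 in number, all lie on red cells, and the 5 of DR against AL in Ercc1Δ/− mice on blue ones.

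Of the 12 proteases, 6 rose. Ctss measured 64.9, 69.9, 33.3 and 45.3 CPM in the 4 Ercc1Δ/− mice and 7.38, 12.6, 14.4 and 13.1 CPM in the 4 WT mice. The lowest Ercc1Δ/− mouse was thus above the highest WT mouse, and the change was 4.41-fold (log2 fold change 2.14, SE 0.25, adjusted p = 1.42e-05). Ctsl, a broad endopeptidase, measured 433.8, 461, 477 and 447 CPM against 376, 338, 372 and 351 CPM, a smaller rise of 1.28-fold (adjusted p = 0.0082). Ctsz, a carboxypeptidase, measured 257, 227, 198 and 231 CPM against 147, 167, 177 and 146 CPM (1.44-fold, adjusted p = 0.00351). Ctsc, the dipeptidyl peptidase that activates granule proteases of leukocytes, measured 59.5, 72.5, 52.3 and 63.5 CPM against 44.8, 40.6, 45.7 and 40.3 CPM (1.46-fold, adjusted p = 0.0111). For each of these genes the groups were fully apart. Lgmn, the asparaginyl endopeptidase legumain (log2 fold change 0.42), and Ctsa (0.30), which also protects β-galactosidase and neuraminidase in a complex, were the others that rose. Ctsd, the major aspartic protease, was higher in every Ercc1Δ/− mouse (288, 229.9, 234 and 239 CPM against 197, 184, 187 and 206 CPM) but missed the threshold (log2 fold change 0.39, SE 0.14, adjusted p = 0.0751). A gene overlaps Ctsd on the same strand, so some of its reads may be missing from its count.

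Cystatin C was higher as well. Cst3 measured 1404, 1253, 1621 and 1457 CPM in Ercc1Δ/− mice and 940.0, 939, 930.1 and 879.7 CPM in WT mice, a 1.57-fold change (adjusted p = 0.000194). Among the 16 glycosidases and sulfatases 3 rose. Fuca1, which removes fucose from glycoproteins, measured 133, 153, 157 and 148 CPM against 86.9, 93.4, 101 and 86.8 CPM (1.65-fold, adjusted p = 0.000109). Hexa, the α subunit of β-hexosaminidase that degrades GM2 ganglioside, measured 222, 218, 209.8 and 202 CPM against 157, 161, 154 and 160.5 CPM (1.35-fold, adjusted p = 0.00209). The third was Gusb, β-glucuronidase (log2 fold change 0.54, adjusted p = 0.000646). Glb1, whose product is the enzyme behind senescence-associated β-galactosidase staining, was not among them, with 35.5, 37.9, 34.1 and 29.7 CPM against 30.6, 33.5, 35.0 and 31.8 CPM. Its ranges overlapped and its log2 fold change was 0.07 (SE 0.15, adjusted p = 0.808), and it shares part of its span with a gene on the same strand.

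Of the 8 lipid genes, Lipa and Npc2 rose. Lipa, the acid lipase that frees cholesterol from lipoprotein esters, measured 118.5, 129.5, 122 and 111.5 CPM in Ercc1Δ/− mice and 79.3, 75.8, 71.9 and 75.6 CPM in WT mice (1.58-fold, adjusted p = 0.000204). Npc2, which hands free cholesterol to NPC1, had a log2 fold change of 0.54 (adjusted p = 0.012), while Npc1 itself stayed at −0.02 (SE 0.13, adjusted p = 0.958), with 69.0, 67.0, 85.6 and 69.6 CPM against 78.0, 70.9, 68.7 and 71.8 CPM. Smpd1, acid sphingomyelinase, did not pass the test either (log2 fold change 0.09, adjusted p = 0.636). Among the membrane proteins, Laptm5, a protein of lymphoid and myeloid cells, measured 76.6, 94.7, 53.8 and 55.4 CPM against 17.4, 17.8, 29.2 and 15.7 CPM (3.88-fold, adjusted p = 0.000455). Scarb2, the receptor that carries β-glucocerebrosidase to the lysosome, measured 177.5, 171, 143 and 156 CPM against 115, 119, 124.8 and 124.8 CPM (1.31-fold, adjusted p = 0.0119). The genotypes did not overlap for either gene. The structural proteins of the membrane did not pass: Lamp1 had a log2 fold change of 0.09 with overlapping ranges, and Lamp2 one of 0.35 (adjusted p = 0.0728) with 247, 289, 183 and 204 CPM against 177, 173, 175 and 181.5 CPM. Of the 5 V-ATPase subunits 1, Atp6v1b2, was higher (log2 fold change 0.47, adjusted p = 0.0216). Tfeb was lower in all 4 Ercc1Δ/− mice, with 44.1, 41.7, 48.5 and 45.9 CPM against 53.5, 49.9, 59.4 and 61.4 CPM, and did not pass (log2 fold change −0.29, SE 0.12, adjusted p = 0.107).

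Leaving out 1 mouse at a time, 10 (without WT mouse 018) to 17 genes (without Ercc1Δ/− mouse 013) were called. Ctsa lost its call in 7 of the 18 runs, Lgmn in 5, Atp6v1b2 in 4, Ctsc in 2, and Npc2 and Scarb2 in 1 each, with an adjusted p of at most 0.139.

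None of the 13 genes with CACGTG in the searched window was among the 15 that rose, which all came from the other 38. The median log2 fold change was 0.07 for the 13 and 0.17 for the 38. Over all tested genes with a searched promoter, 4.18% of those with CACGTG and 5.5% of those without it were called higher in this comparison. GAGGAAGT, a form of the sequence that the myeloid factor PU.1 binds, was found on either strand in 2 of the 51 windows, those of Ctss and Gla, against 3.07% of all promoters, and 11.9% of tested genes with it against 5.19% without it were called higher.

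**Figure D2:**
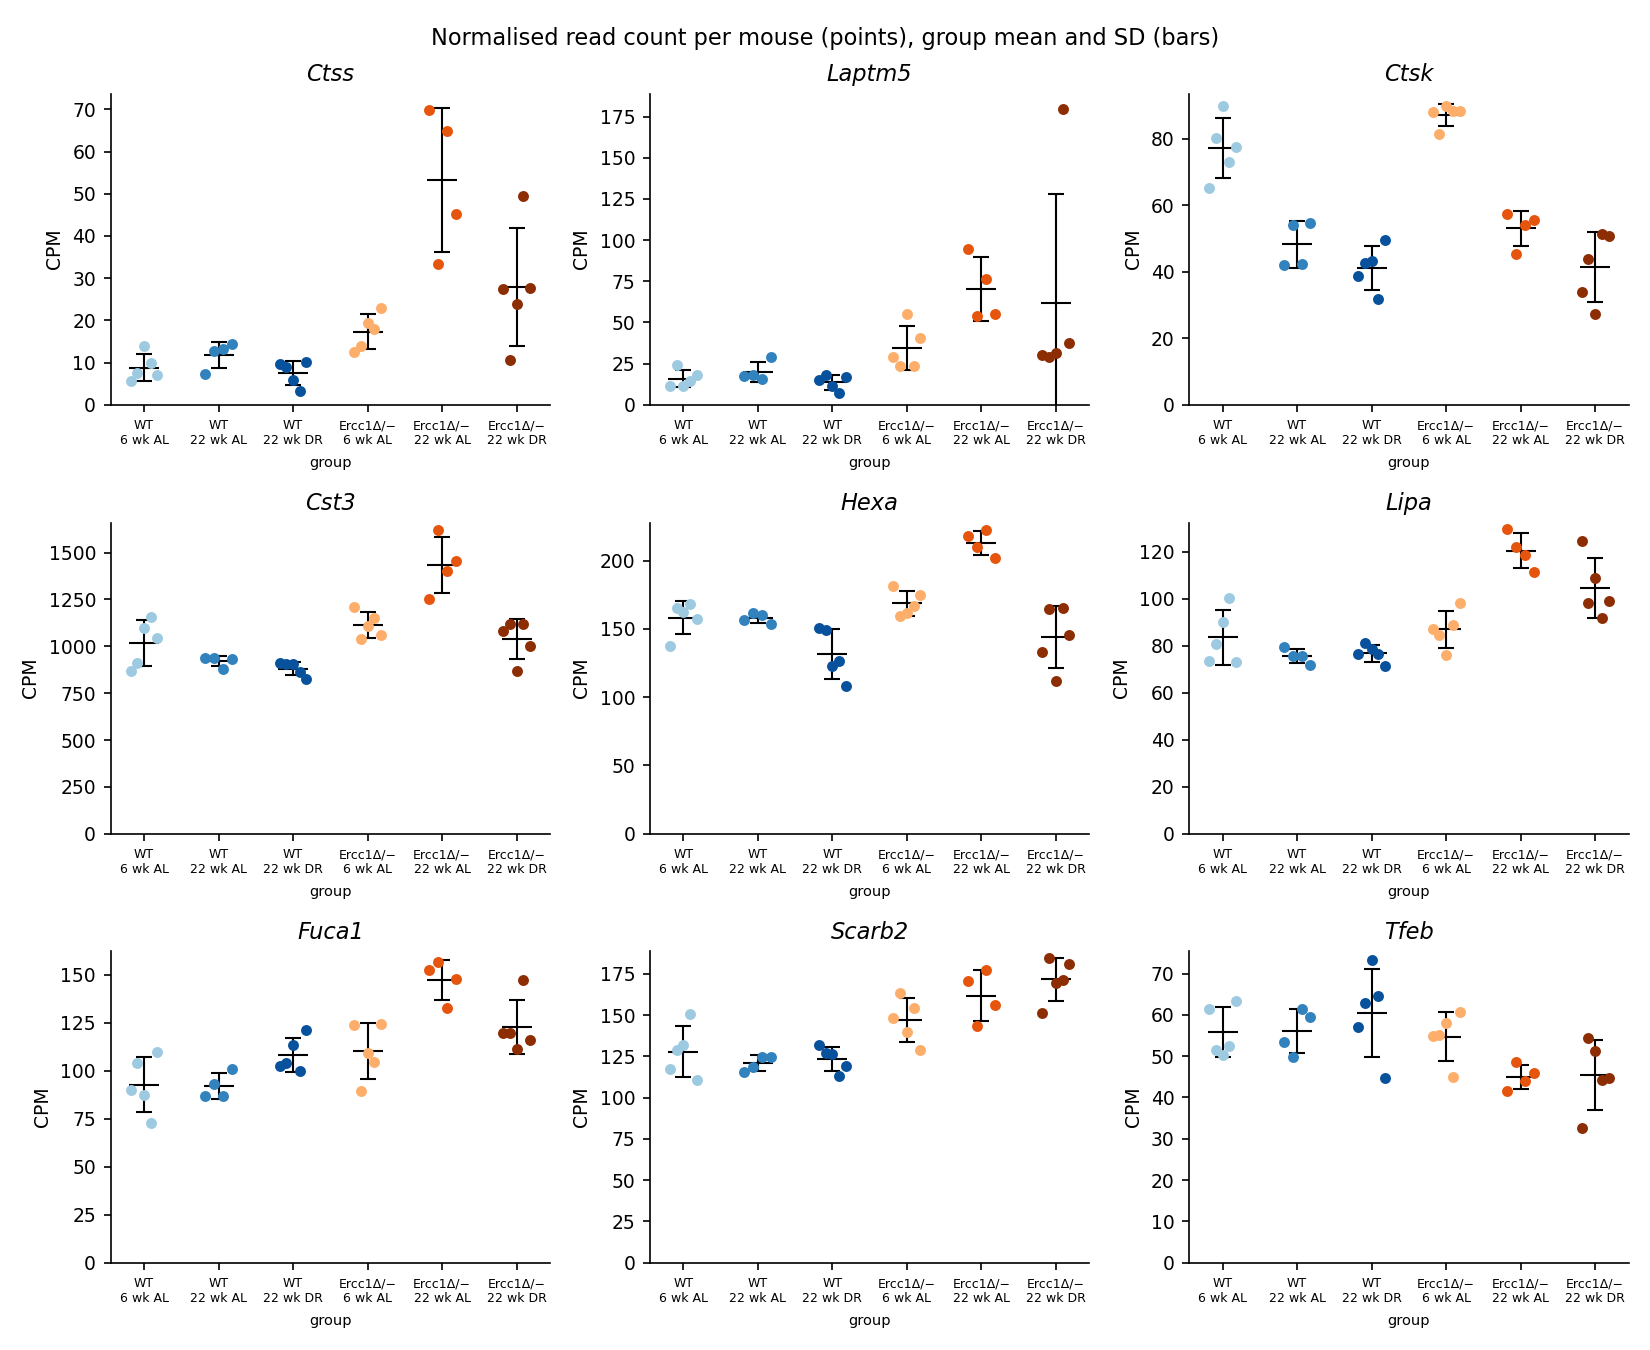
Normalised read count (CPM, vertical axis from 0) of 9 lysosomal genes in each mouse (points) of the 6 groups (horizontal axis), with the group mean and SD (black bars). Ctss, Laptm5, Cst3, Hexa, Lipa and Fuca1 are highest on average in 22-week-old AL-fed Ercc1Δ/− mice, Ctsk falls with age in both genotypes, and the point of Laptm5 at 179.8 CPM is mouse 016, whose group has an SD bar that runs below the axis.

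In the wider pathway, of 29 further lysosomal enzymes and membrane proteins 9 rose and none fell in this comparison, among them Cd68 (log2 fold change 2.07), Gpnmb (1.08) and Dpp7 (0.44). Cd68 encodes macrosialin, a glycoprotein of macrophage lysosomes, and Gpnmb a transmembrane glycoprotein of macrophages and pigment cells. Of 11 other V-ATPase genes 1 rose (Atp6v1e1, 0.50). Of 6 genes for mannose 6-phosphate tagging and sorting 1 fell, Sort1 (−0.49), which sorts hydrolases to the lysosome. Among 15 genes that act with TFEB and mTORC1, Flcn (0.52), Lamtor1 (0.52) and Rragd (1.39) rose and Rptor (−0.49) fell. Of 14 autophagy genes only Gabarapl1, an ATG8 family member, was called (0.45).

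Markers of macrophages moved in the same comparison, and those of smooth muscle moved the other way. Of the 18 macrophage markers that could be tested 14 rose and 1 fell, with Mpeg1 at a log2 fold change of 2.29 and C1qb at 1.52, and the summed level of the 22 listed markers was 923 to 1602 CPM in Ercc1Δ/− against 538 to 718 CPM in WT mice. Of the 9 smooth muscle markers 8 fell, and their sum was 18140 to 27820 CPM against 34760 to 41100 CPM. In bulk tissue, more or fewer cells of a type and more or less RNA per cell cannot be told apart. When the mean log2 CPM of the 18 macrophage markers was added to the model as a covariate, 2 of the 15 genes passed the test, Cst3 (log2 fold change 0.75, adjusted p = 0.0465) and Gusb (0.72, adjusted p = 0.0443). Lipa lay just outside (0.76, adjusted p = 0.0562).

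The covariate acted on the estimates in different ways. For Laptm5 the log2 fold change was 0.76 with it and 1.96 without it, and for Ctss 1.30 and 2.14. Lgmn went to 0.13 from 0.42. The estimates of Cst3, Gusb, Lipa, Hexa and Scarb2 were not smaller with the covariate, 5 of the 15 genes, while 10 were smaller. The covariate is itself tied to genotype, so standard errors grew to a median of 0.19 from 0.11 over the 15 genes, and the calls over all tested genes went to 73 (0.591%) from 1419. A call lost under the covariate therefore does not show that the change was 0.

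**Figure D3:**
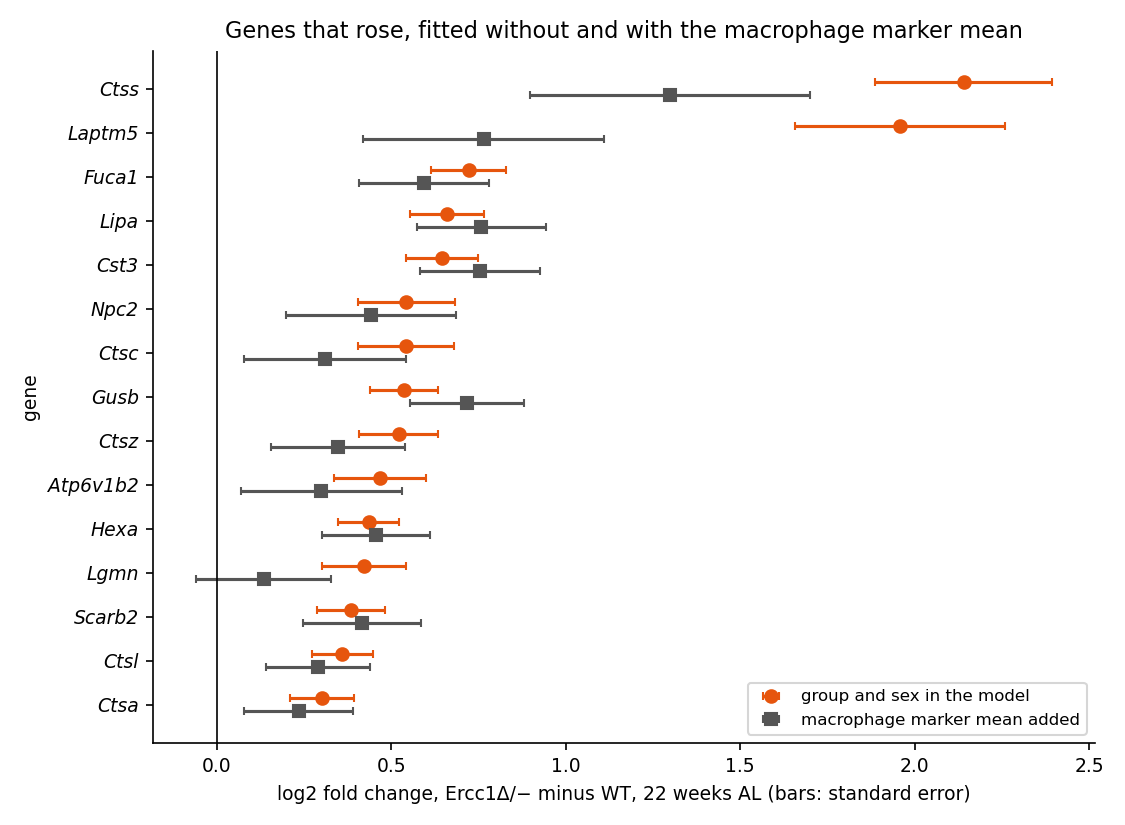
Log2 fold change of the 15 genes that rose in 22-week-old AL-fed Ercc1Δ/− mice (horizontal axis, bars show the standard error) with group and sex in the model (circles) and with the macrophage marker mean added (squares). Laptm5, Ctss and Lgmn move towards 0 with the marker mean, whereas Lipa, Cst3 and Gusb do not.

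The relation to macrophage markers was also examined across mice within groups. Values were centred on their group means, and the correlation of each tested gene with the macrophage marker mean was computed over 28 mice, with permutations within groups and adjustment over 12353 genes. Sex was in the fits above but not in these correlations. In 22-week-old AL-fed Ercc1Δ/− mice, females 005 and 004 had higher macrophage sums (1602 and 1370 CPM) than males 013 and 026 (922.7 and 1148 CPM). Their libraries were also deeper (3351172 and 3855444 against 1294980 and 1433979 counts). The part of sex and depth in the correlations was not tested. Laptm5 alone of the 51 genes passed (Pearson's r = 0.83, permutation p = 3e-05, adjusted p = 0.0494; Spearman's rho = 0.77, permutation p = 4e-05, adjusted p = 0.0618), against 10 of all genes (0.081%), of which 5 are markers that enter the macrophage mean and so correlate with it in part by construction. Without the 2 mice farthest from the median, 005 and 016, its r was 0.71. The call held in 3 of the 28 runs that left out 1 mouse and in neither run with another prior count or with 5 markers in the mean. With 100000 permutations the smallest possible p was 1e-05, so a call this near the threshold, and its loss, depend in part on these coarse steps. Man2b1, lysosomal α-mannosidase, and Ctss followed with r = 0.66 (rho = 0.51, adjusted p = 0.422 and 0.543 for the permutation tests) and r = 0.59 (rho = 0.63, adjusted p = 0.504 and 0.277). Without those 2 mice the r of Man2b1 was 0.29, and mouse 016 had 272 CPM of it against 106.8 to 129.8 CPM in its group. At the other end stood Lipa (r = −0.38, rho = −0.31), Smpd1 (r = −0.23, rho = −0.17) and Mcoln1, the lysosomal calcium channel (r = −0.16, rho = −0.12), with permutation p-values of 0.0873, 0.311 and 0.519 for r and 0.145, 0.453 and 0.58 for rho, and adjusted p-values from 0.888 to 0.997. Cst3 had r = −0.04 (rho = −0.14). Among the 18 markers of the mean itself, only Mertk had a negative r (r = −0.16, rho = −0.32, permutation p = 0.565 and 0.137). It measured 134.2 CPM on average in 22-week-old AL-fed WT mice, whose macrophage sums were 538 to 718 CPM. The median r was 0.19 over the 51 genes, 40 of them positive, and 0.01 over all genes, 51.9% of them positive.

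**Figure D4:**
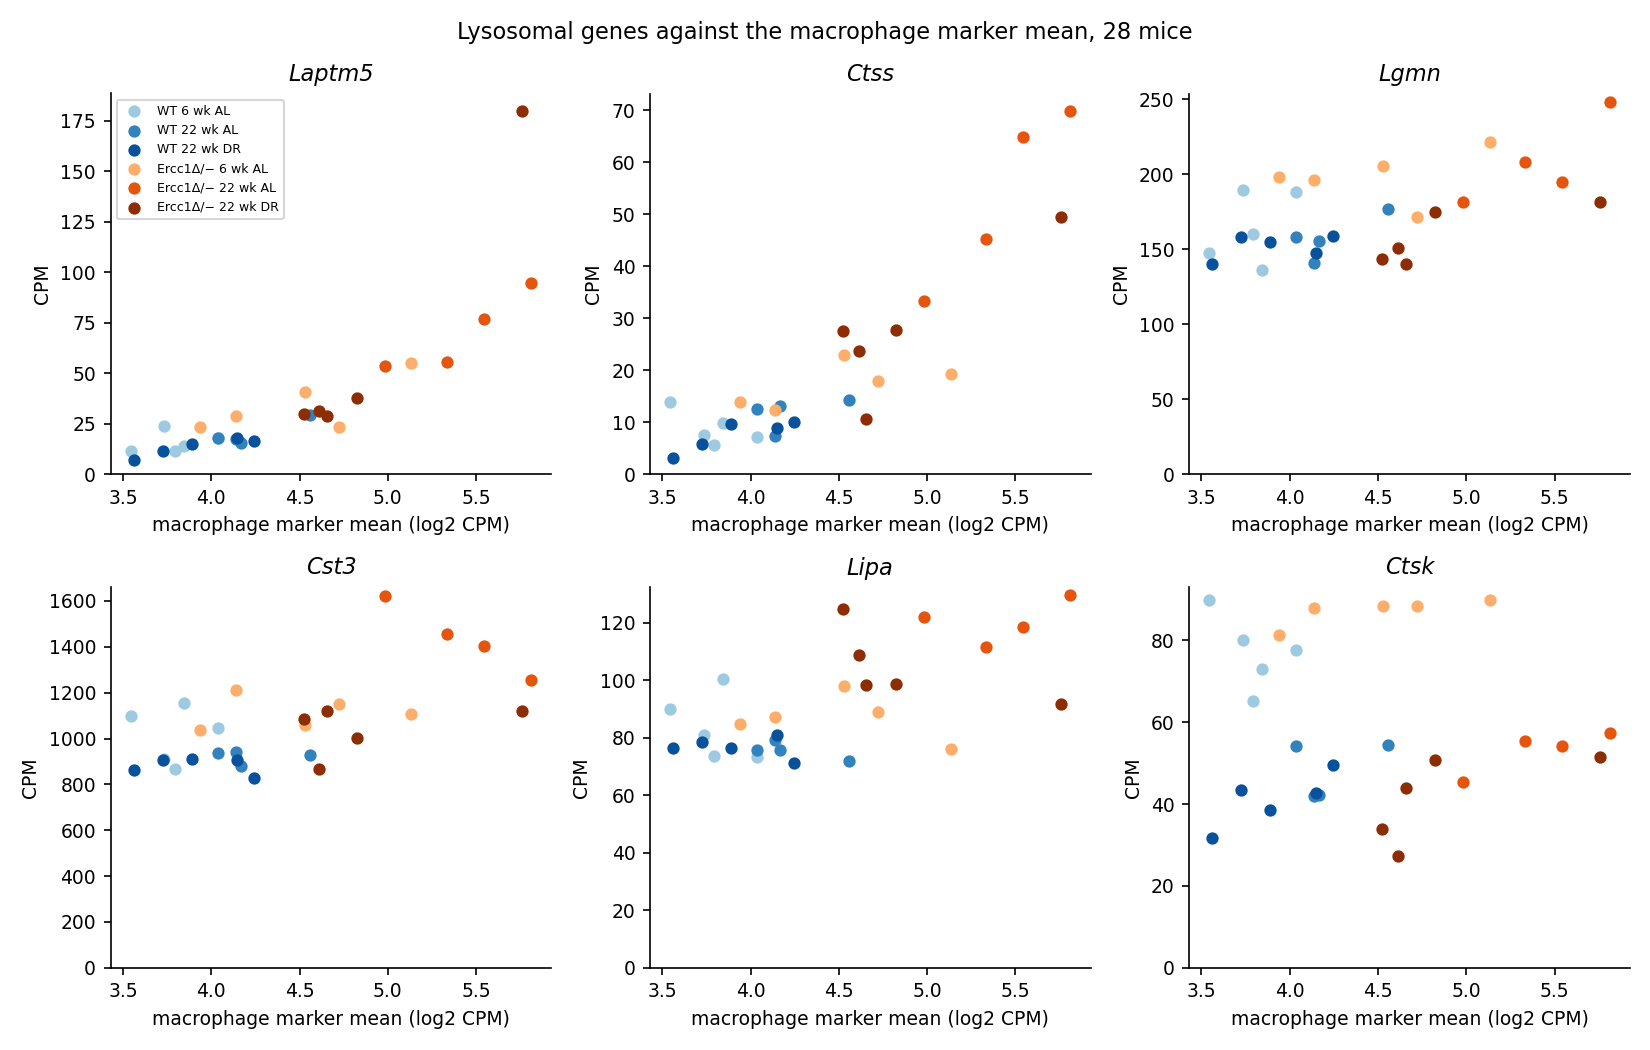
CPM of 6 lysosomal genes (vertical axes from 0) against the mean log2 CPM of 18 macrophage markers (horizontal axes) in 28 mice, coloured by group. Laptm5 and Ctss climb with the marker mean over all mice, Cst3 and Lipa had within-group correlations of −0.04 and −0.38, and Ctsk separates by age.

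At 6 weeks the difference between genotypes was small. On AL, 1 of the 51 genes was higher in Ercc1Δ/− mice and none was lower, against 1.73% of all tested genes called 0.583% called higher and 1.15% called lower. That gene was Ctss, with 12.4, 13.9, 19.4, 18.0 and 22.9 CPM in Ercc1Δ/− and 7.59, 7.11, 9.82, 14.0 and 5.63 CPM in WT mice (2.22-fold, adjusted p = 0.0331). The highest WT mouse lay within the Ercc1Δ/− range, and leaving out any of 7 of the 10 mice ended the call. Laptm5 had the next smallest p (log2 fold change 1.05, SE 0.29, adjusted p = 0.0932), with 28.9, 23.5, 55.0, 23.5 and 40.8 CPM against 24.0, 17.8, 14.2, 11.6 and 11.6 CPM. Of the 18 macrophage markers 2 were higher and 1 lower at this age, and their part in the change of Ctss was not tested beyond the covariate fit, in which its adjusted p was 0.66 and none of the 51 genes was called in edgeR (0.0648% of all genes; 1 of the 51 at an unadjusted p under 0.05). Cd68 was the only called gene among the 29 further lysosomal genes (log2 fold change 1.25).

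Between 6 and 22 weeks on AL, 6 genes rose and 1 fell in Ercc1Δ/− mice, against 4.53% of all tested genes called (1.99% higher and 2.53% lower). These mice of 22 weeks are the same 4 that enter the genotype comparison above. Ctss rose 3.16-fold (adjusted p = 0.00014) and Laptm5 2.24-fold (adjusted p = 0.0232). Lipa rose 1.37-fold from 87.1, 84.7, 76.1, 88.9 and 98.1 CPM at 6 weeks to the values above (adjusted p = 0.0074), and every older mouse was above every younger one. Fuca1 (1.35-fold), Hexa (1.26-fold) and Cst3 (1.29-fold) rose as well, again without overlap. In 6 of the 51 genes every older mouse was above every younger one and in 2 below. Over all genes 6.78% had ranges without overlap. Of the 18 macrophage markers 7 rose and none fell. With the macrophage mean as covariate 1 of the 51 genes was called (0.704% of all genes) and it was not one that rose, and the estimates of the 6 that rose moved in both directions. Those of Laptm5 (0.24), Ctss (1.00) and Fuca1 (0.34) were smaller than without it (1.17, 1.66 and 0.44), and those of Lipa (0.53), Cst3 (0.44) and Hexa (0.35) were not (0.46, 0.36 and 0.33). Leaving out mouse 008 left 3 genes called in all, and leaving out mouse 004 or 005 left 4.

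The gene that fell was Ctsk, cathepsin K, a protease that cleaves collagen. In Ercc1Δ/− mice it measured 87.9, 81.4, 89.7, 88.3 and 88.3 CPM at 6 weeks and 54.1, 57.3, 45.5 and 55.4 CPM at 22 weeks, a change of −0.71 on the log2 scale (SE 0.11, adjusted p = 0.000395). In WT mice it measured 80.2, 77.6, 73.1, 89.9 and 65.1 CPM at 6 weeks and 41.9, 54.1, 54.5 and 42.2 CPM at 22 weeks, a change of −0.66 (SE 0.11, adjusted p = 0.0066). The age groups did not overlap in either genotype, as in 6.78% of all genes in Ercc1Δ/− and 3.85% in WT mice. The test of the difference between the 2 changes gave −0.04 (SE 0.16, adjusted p = 0.964). Ctsk was the only one of the 51 genes called with age in WT mice, against 0.219% of all tested genes, and leaving out WT mouse 025 raised its adjusted p to 0.0529. It was called in both genotypes with the macrophage mean in the model (−0.83 and −0.72), where 0.113% of all genes were called with age in WT mice. Fibrillar collagen genes of the fibroblast list were lower with age as well, Col3a1 by 2.25 and Col1a1 by 1.84 on the log2 scale in Ercc1Δ/− mice and Col3a1 by 0.97 in WT mice, and their part in the fall of Ctsk was not tested. Summed over the 7 genes of that list, the median at 6 and 22 weeks on AL was 18600 and 6795 CPM in Ercc1Δ/− mice and 14020 and 8993 CPM in WT mice. Apart from the collagens, the genes of the list differed less in WT mice. Mean levels at 6 and 22 weeks were 1434 and 1433 CPM for Dcn, 793.4 and 744.7 CPM for Pi16, and 108.6 and 96.95 CPM for Pdgfra. For Dpt they were 433 and 377.1 CPM, and for Lum 331.5 and 269 CPM.

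The test of whether the age change differed between genotypes called none of the 51 genes in edgeR, against 0.801% of all tested genes, with 10 of the 51 at an unadjusted p under 0.05, and DESeq2 called 3. Lipa had the smallest p (difference of the log2 fold changes 0.56, SE 0.14, adjusted p = 0.0685), followed by Cst3 (0.50, SE 0.14, adjusted p = 0.103). Among the 29 further lysosomal genes Gpnmb passed this test (1.16, SE 0.22, adjusted p = 0.0106). It measured 65.1, 49.9, 57.6 and 63.5 CPM in AL-fed Ercc1Δ/− mice of 22 weeks, 14.4 to 24.0 CPM in those of 6 weeks, and 12.0 to 31.1 CPM in AL-fed WT mice of either age. With the macrophage mean in the model its adjusted p was 0.0344.

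In 22-week-old Ercc1Δ/− mice, 5 of the 51 genes fell on DR relative to AL and none rose, against 1.72% of all tested genes called, 0.696% higher and 1.03% lower. The log2 fold change was negative in 43 of the 51 genes with a median of −0.23, while over all tested genes 50.1% were positive and the median was 0.001. The AL-fed mice of this comparison are again the 4 in which the genes were high, so that a fall here and a rise above are not independent. In 9 genes every mouse on DR was below every AL-fed mouse and in none above, against 5.02% of all genes without overlap in either direction.

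Ctsc measured 26.8, 36.3, 41.0, 44.1 and 35.7 CPM on DR, and the change from AL was −0.73 on the log2 scale (SE 0.13, adjusted p = 0.00531). Hexa measured 133.5, 164.5, 165, 145.5 and 112 CPM (−0.56, SE 0.11, adjusted p = 0.00798). Cst3 measured 1083, 1121, 1118, 1003 and 868 CPM (−0.46, SE 0.09, adjusted p = 0.00707). All of these lay below the AL-fed mice given above. Ctsz measured 162, 177, 165, 174 and 151 CPM (−0.44, SE 0.09, adjusted p = 0.00834). Lamp1, a major glycoprotein of the membrane, measured 639, 592, 620.0, 602 and 536 CPM on DR and 787, 811, 693 and 685 CPM on AL (−0.30, SE 0.08, adjusted p = 0.0451). Lamp1 was the only gene with CACGTG among the 5. Its call lies close to the threshold and was lost in 12 of the 18 runs that left out 1 mouse. Just beyond the threshold stood Ctsd (−0.36, adjusted p = 0.0504), Lgmn (−0.38, adjusted p = 0.0508) and Ctsb (−0.28, adjusted p = 0.0599), with every mouse on DR below every AL-fed mouse. The genes with CACGTG had a median of −0.30 and those without it one of −0.22.

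**Figure D5:**
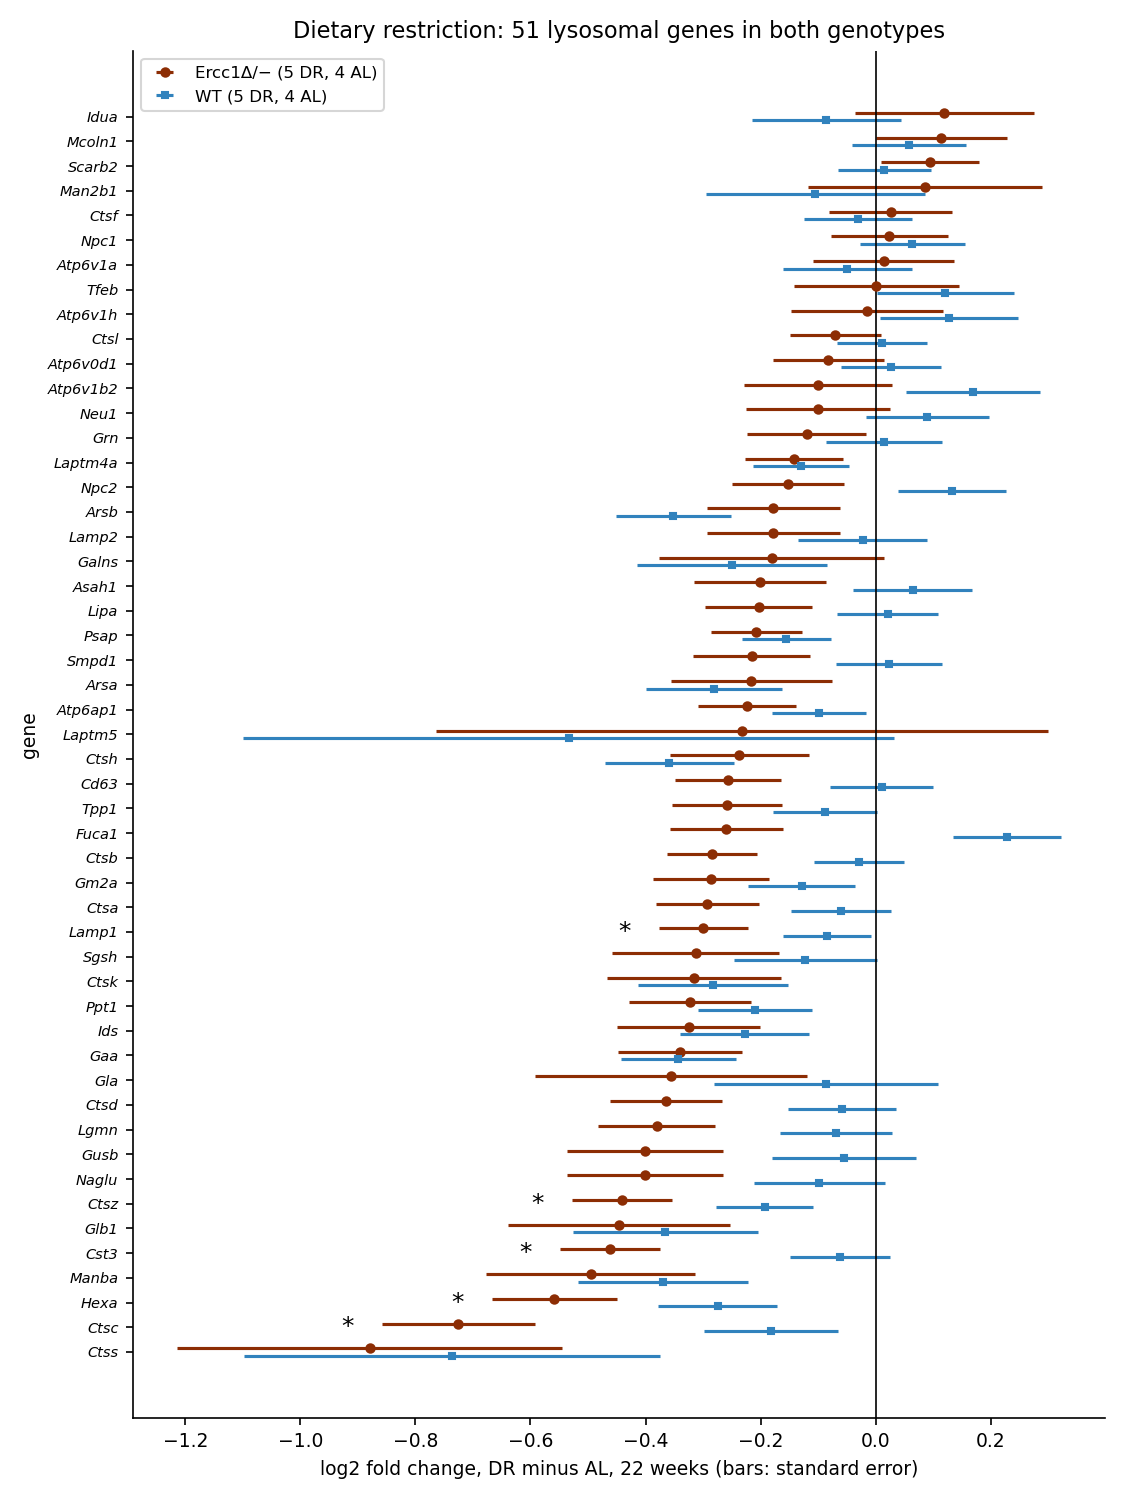
Log2 fold change of DR against AL at 22 weeks (horizontal axis, bars show the standard error) for the 51 genes (vertical axis, in the order of the Ercc1Δ/− values) in Ercc1Δ/− (circles) and WT mice (squares), with an asterisk beside the 5 genes that fell in Ercc1Δ/− mice. Most circles lie left of 0 (43 of 51), as do 35 of the squares.

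Mouse 016 lay above the rest of its group in several of these genes. Its Laptm5 was 179.8 CPM against 30.0, 28.9, 37.8 and 31.6 CPM in the others on DR, and its Glb1 43.6 CPM against 24.3, 13.9, 24.8 and 19.7 CPM. Without it 10 genes fell and none rose, with the calls over all genes at 213 either way, and the median was −0.30. Laptm5 (−1.09), Glb1 (−0.69), Gusb (−0.55), Lgmn (−0.44) and Ctsa (−0.37) were then among the 10, and Ctss came to −1.16 (adjusted p = 0.0511). Of the 18 macrophage markers 6 fell on DR with all mice, among them C1qa (−0.99) and C1qb (−0.98), and 9 without mouse 016. With the macrophage mean in the model 1 gene passed (0.988% of all genes), Cst3 (−0.47, adjusted p = 0.0197), while Hexa (−0.49, adjusted p = 0.05004), Ctsc (−0.55, adjusted p = 0.0616) and Ctsz (−0.39, adjusted p = 0.0616) lay just outside. Of the 29 further lysosomal genes Cd68 (−1.21), Gpnmb (−0.69) and Naaa (−0.65), an acid amidase, fell. No gene of the TFEB and mTORC1 or autophagy lists was called.

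In WT mice DR changed none of the 51 genes significantly in edgeR, against 1.17% of all tested genes (0.324% higher and 0.842% lower), with 11 at an unadjusted p under 0.05, and DESeq2 called 1. None was called with the macrophage mean in the model either, against 0.68% of all genes. The log2 fold change was negative in 35 of the 51 genes with a median of −0.09, while over all tested genes 52.4% were positive and the median was 0.01. Hexa was lower in every WT mouse on DR (150.4, 123, 149.5, 108 and 126 CPM) than on AL, with a log2 fold change of −0.27 (SE 0.10, adjusted p = 0.243), and Glb1 likewise (27.4, 24.0, 28.1, 19.5 and 26.1 CPM; −0.37, SE 0.16, adjusted p = 0.348). Such a separation was seen in 3 of the 51 genes, all lower on DR, against 5.14% of all genes in either direction. The test of whether the response to DR differed between genotypes called none of the 51 genes in edgeR, with 8 at an unadjusted p under 0.05, or in DESeq2, against 0.089% of all tested genes in edgeR. The smallest p was that of Fuca1 (difference −0.49, SE 0.14, adjusted p = 0.215), which was lower on DR in Ercc1Δ/− (−0.26) and higher in WT mice (0.23), neither of them past the test. A difference in response between the genotypes was thus not shown for any of these genes.

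On DR, 5 of the 51 genes were higher and 2 lower in Ercc1Δ/− than in WT mice, against 12.9% of all tested genes called (5.89% higher and 7.02% lower), so that their share (13.7%) was near that of all genes. The median log2 fold change was 0.02. Scarb2 had the smallest p, with 151, 185, 171, 181 and 169.7 CPM against 132, 126.5, 127, 119 and 113 CPM (1.39-fold, adjusted p = 0.000185). Lipa followed with 125, 98.3, 91.8, 98.9 and 109 CPM against 76.6, 78.4, 80.9, 71.3 and 76.5 CPM (1.36-fold, adjusted p = 0.000856), and it was the only one called with the macrophage mean in the model, against 1.59% of all genes (log2 fold change 0.57, adjusted p = 0.0193). Ctss measured 27.5, 10.7, 49.5, 27.8 and 23.8 CPM against 9.62, 5.91, 8.84, 10.1 and 3.14 CPM (3.88-fold, adjusted p = 0.00184). Ctsl measured 483, 419.9, 475, 393 and 399.8 CPM against 383, 359.8, 362, 357 and 335 CPM (1.21-fold, adjusted p = 0.0147). In these 4 genes and in Laptm5 every Ercc1Δ/− mouse was above every WT mouse. These were 5 of the 51 genes, against 8.27% of all tested genes without overlap in either direction.

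Laptm5 was higher too, by 2.18 on the log2 scale (adjusted p = 0.0178), against WT values of 15.1, 11.4, 18.0, 16.6 and 6.94 CPM. Without mouse 016 the difference was 1.25 (adjusted p = 0.00236), and with the macrophage mean in the model it was −0.03 (adjusted p = 0.986). That covariate fit included mouse 016, whose marker mean was 5.76 against at most 4.83 in the rest of its group. The weight of this mouse in the fit was not tested. Of the macrophage markers 10 of 18 were higher. Their mean was 3.56 to 4.24 in WT and 4.52 to 5.76 in Ercc1Δ/− mice on DR, again without overlap. The call of Lipa with the covariate therefore does not show a change apart from macrophages. The 2 genes that were lower were Tfeb and Ppt1, the thioesterase that removes palmitate from proteins. Tfeb measured 32.6, 54.5, 44.3, 44.8 and 51.2 CPM against 57.0, 73.3, 62.9, 44.6 and 64.6 CPM (log2 fold change −0.42, SE 0.13, adjusted p = 0.0295), with an overlap through 1 low WT mouse, and leaving out any of 5 mice ended the call. Ppt1 measured 139.9, 106.8, 155, 138.5 and 133 CPM against 189.9, 169, 164, 143 and 166 CPM (−0.30, SE 0.10, adjusted p = 0.0427), again with 1 WT mouse inside the Ercc1Δ/− range, and its call was lost in 11 of the 18 runs that left out 1 mouse, with an adjusted p of up to 0.145. Leaving out WT mouse 028 left 3 of the 7 genes called, and leaving out mouse 006 left 4. Without mouse 016 Ctsl and Tfeb were no longer called and the other 5 were.

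Over the 7 comparisons 19 of the 51 genes were called at least once in edgeR with all 28 mice, against 21% of all tested genes, and 32 were not. Among the 32 were Npc1, Glb1, Lamp2, Ctsd, Man2b1, Smpd1 and Mcoln1, although Glb1 was called for DR in Ercc1Δ/− mice without mouse 016. Npc1 ranged from 48.4 to 87.3 CPM over the 28 mice and Mcoln1 from 45.7 to 66.7 CPM, and the log2 fold changes of Npc1 lay between −0.13 and 0.12 and those of Mcoln1 between −0.01 and 0.11 in the 7 comparisons. The absence of a call does not show equal levels, since the standard errors of these 2 genes were 0.09 to 0.13.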

How the data were processed

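RNA of 29 aortic arches was sequenced by the authors with unique molecular identifiers (UMI). Per the labels and the study's methods, the authors extracted UMIs (UMI-tools 1.1.2), aligned reads to mm39 with STAR 2.7.10a, removed duplicates by UMI and counted reads over whole Ensembl genes, introns included, with HTSeq 2.0.2. The deposited values are raw counts, and the strand setting of the counting was not given in the sources used here. By position, 17 of the 51 genes overlap a gene on the opposite strand and 2 one on the same strand, so reads there may be missing from their counts. Reads that the counter marked as ambiguous, 1.4% to 1.82% of each library, stand in 1 of its summary lines and enter no gene. The 5 summary lines of the counter, 12.6% to 18.7% of each of the 28 libraries used, were kept out. Library 003 (400410 counts) was left out and added back as an alternative.

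Groups, ages, sexes and diets came from the sample titles. Symbols were matched for 56017 of 56748 genes. Counts were scaled by TMM and tested in edgeR 4.0.16 (R 4.3.3) with group and sex in the model, in 1 fit of 18 AL-fed mice (genotype and age) and 1 of 18 mice of 22 weeks (diet, and genotype on DR). The fits share mice, so the comparisons are not independent. CPM are counts scaled to 1000000 of the TMM-scaled library. Correlations used log2 CPM with a prior count of 2 and 100000 permutations within groups, without a term for sex. The scripts were tested on simulated counts with known changes. Alternatives were DESeq2 1.42.0, its size factors in edgeR, no filter, no sex term, thinning to 921167 counts, the macrophage mean as a covariate and leaving out each mouse.

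The 51 genes, the other lists and the tests were chosen with earlier results of these data known. Values by mouse are given for the 4 called genes with the smallest p per direction in each comparison, for Laptm5, Ctss, Ctsk, Ctsd, Lamp1, Lamp2, Glb1, Cst3, Tfeb and Npc1, and for the 3 genes at either end of the correlations. Promoters were read from GRCm39 with GENCODE M39 starts. Figures were drawn with matplotlib 3.10.9.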

Additional observations from a re-analysis of the deposited data

Results flagged for a closer look

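Among 138 sets of values (a gene or a summed list in 1 group of 4 or 5 mice), 14 had a highest or lowest mouse far from the rest by Dixon's criterion, which chance reaches in about 1 of 20 sets. In Ercc1Δ/− mice on DR, mouse 016 was the highest for Fuca1 (147.2 CPM, next 119.7), Laptm5 (179.8, next 37.76), Man2b1 (271.6, next 129.8) and the summed macrophage markers (1772, next 834.9), and the lowest for Ctsd (162.2, next 192.4). In AL-fed WT mice of 22 weeks, mouse 020 was the highest for Laptm5 (29.23 CPM, next 17.76) and the summed macrophage markers (718.2, next 556.8), mouse 025 the lowest for Cst3 (879.7, next 930.1) and mouse 012 the lowest for Ppt1 (175.7, next 196.7). In AL-fed Ercc1Δ/− mice of 22 weeks, mouse 004 was the highest for Ctsd (288.2 CPM, next 239.2) and mouse 013 for Npc1 (85.6, next 69.58). In 6-week-old mice, Ercc1Δ/− mouse 008 was the lowest for Ctsk (81.39 CPM, next 87.9), and WT mouse 024 was the lowest for Ctsd (128.6, next 174.2) and for the 51 genes summed (9247, next 10150).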

How the results depend on the processing

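No paired analysis was possible because each mouse gave 1 sample with a number of its own, and no replicate number was shared between groups. With the size factors of DESeq2 in edgeR no count of called genes moved by more than 1.5 times. DESeq2 called 2 of the 51 genes for genotype at 6 weeks, 9 for DR in Ercc1Δ/− and 1 in WT mice, and 3 for the interaction of genotype and age. Without the filter the counts were 2 at 6 weeks, 9 for genotype at 22 weeks on AL, 8 for DR in Ercc1Δ/− and 2 in WT mice, and 2 for the interaction with age, which was 1 without the sex term. Thinned to the shallowest library they were 0 at 6 weeks, 4 at 22 weeks on AL, 0 for age in either genotype, 0 for DR in Ercc1Δ/− and 1 in WT mice, and 3 for genotype on DR. All of these except that for DR in WT mice were lower than with all reads. With the macrophage mean they were 0, 2, 1 for age in Ercc1Δ/− mice, 1 for DR in Ercc1Δ/− mice and 1 for genotype on DR, where Laptm5 turned to −0.03. Leaving out 1 mouse gave 0 to 1 at 6 weeks, 10 to 17 at 22 weeks on AL, 3 (without 008) to 9 (without 027) for age in Ercc1Δ/− and 0 to 1 in WT mice, 4 to 10 (without 016) for DR in Ercc1Δ/− and 0 to 2 (without 007) in WT mice, 3 to 7 for genotype on DR, and 0 to 1 for the interaction with age (1 without 024 or 027). For the correlation with the macrophage mean the count was 0 with a prior count of 0.5, 0 with 5 markers and 0 to 1 leaving out 1 mouse. Over all genes, DR in Ercc1Δ/− mice gave 213 calls, 348 in DESeq2, 428 without the filter, 103 with library 003 and 5 thinned, and genotype at 22 weeks on AL gave 1419, 2198 without the filter and 274 thinned. Unless stated, the cause of these shifts was not tested.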
